A study of Mus musculus with 15 samples.

Results

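Gene expression was compared between 3 samples of tumours made by infecting cerebellar cells with Myc and 3 samples of tumours of the Sonic hedgehog (Shh) type. Each was measured on 1 Affymetrix HT_MG-430_PM array. These 6 arrays, chosen by their labelled tumour type, were part of a mouse series of 15 arrays in 5 groups of 3, and 17097 genes represented by a probe set of their own were tested. The Myc tumours grew in the cerebral cortex of immunocompromised nude mice, into which cells infected with Myc had been placed. Those cells came from the cerebellum of Cdkn2c-/-, Trp53-/- mice with an Atoh1-GFP reporter. The Shh tumours were medulloblastomas that arose by themselves in Cdkn2c-/-; Trp53Fl/Fl; Nestin-Cre mice, in which Cre driven by the promoter of the neural progenitor gene Nestin deletes Trp53. Both groups therefore lacked Cdkn2c, an inhibitor of cyclin-dependent kinases, and had Trp53, the p53 tumour suppressor, removed. They differed in the oncogenic route, in the site of growth, in the host's immune system and in whether cells had been infected and transplanted, and these differences cannot be told apart. The tumours had been dissociated and their cells enriched on Percoll. Age, sex and batch are not in the labels, and neither is whether each array had an animal of its own. Every p-value therefore measures only the spread between samples within a group, pooled over the 5 groups of the series.

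Medulloblastoma is a malignant tumour of the cerebellum. In the Shh form, Shh signalling releases Smo from its receptor Ptch1 and turns on the Gli transcription factors, which drive division of granule neuron progenitors, the cells marked by Atoh1. Myc is a basic helix-loop-helix transcription factor that pairs with Max on E-box sequences and is known for raising genes of ribosome production, nucleotide synthesis and energy metabolism.

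Levels are the authors' log2 signals, and a difference of 1 log2 unit is 2-fold. Differences are Myc minus Shh with the standard error of the limma fit. A gene is said to have risen (higher in Myc tumours) or fallen (lower) when its Benjamini-Hochberg adjusted p over all genes was below 0.05. Background was set at a log2 signal of 4.77, below which 95% of the readings of 23 nonspecific control probe sets fell. Where the mean of 1 group lay below it, the fold is a lower bound, written "at least", with each array of that group set to background where it read lower. Arrays are called Myc 1 to Myc 3 and Shh 1 to Shh 3, and a tumour in the text stands for the sample on 1 array. Most genes named were drawn from those whose groups did not overlap, so a lack of overlap in them follows from that choice.

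Array medians were 4.64 to 4.73. Across genes, Pearson correlations were 0.970 to 0.974 among Myc tumours, 0.980 to 0.988 among Shh tumours and 0.936 to 0.945 between the groups. The library labelled Myc 3 stood apart in markers of other cell types. All 10 measured oligodendrocyte markers and all 11 endothelial and mural markers were highest there among the 6 arrays. Among the 3 Myc arrays alone, 7 of 10 fibroblast and meningeal markers were highest in Myc 3. Of these, Pdgfra read 6.10 in Myc 3 but 7.28 to 8.82 in Shh tumours. The log2 of the summed oligodendrocyte signal was 12.84 in Myc 3 against 9.65 in Myc 1, 8.25 in Myc 2 and 8.91 to 8.96 in Shh tumours. Of that list 1 gene rose, Cldn11, a tight junction protein of myelin, at 10.05 in Myc 3 and 7.20 and 5.98 in Myc 1 and Myc 2. The endothelial sum was 11.64 in Myc 3, 9.77 and 9.86 in the other Myc tumours and 8.49 to 9.50 in Shh tumours. The fibroblast sum was 12.27 in Myc 3, 9.68 and 11.47 in Myc 1 and Myc 2, and 8.79 to 10.41 in Shh tumours. Microglial sums overlapped between the groups (9.77 to 10.25 and 9.57 to 10.28), with 0 of 12 genes changed and 0 at an unadjusted p below 0.05. Of 8 lymphocyte genes, 7 lay below background on all 6 arrays. In bulk samples of this kind, fewer cells of a type and less RNA per cell cannot be told apart.

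**Figure D1:**
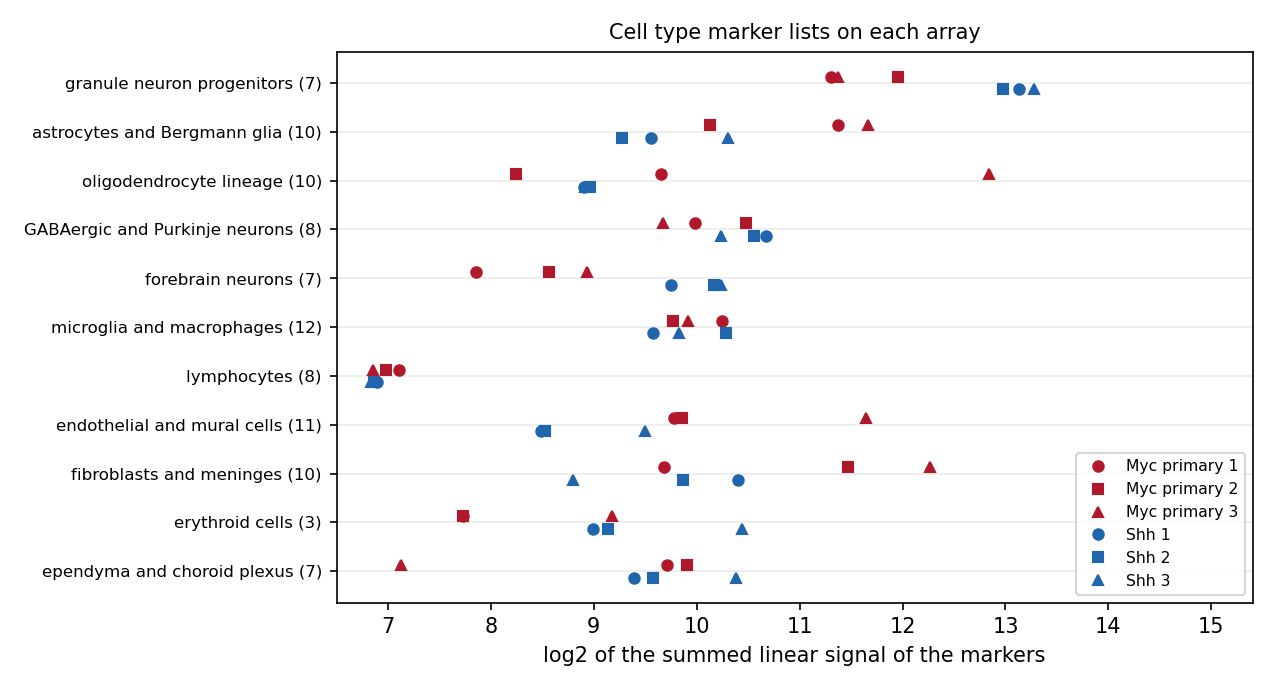
Log2 of the summed linear signal of each marker list (x axis) on each of the 6 arrays, with Myc tumours in red and Shh tumours in blue; the number of genes measured is in brackets. Myc 3 stands at 12.84 for the oligodendrocyte lineage and 11.64 for endothelial and mural cells, above the other 5 arrays, and the granule neuron progenitor list is higher in all 3 Shh tumours.

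Of 17097 genes, 2701 changed, which is 15.8% of those tested. Of these, 1447 rose (8.46%) and 1254 fell (7.33%), and 773 of the rises and 789 of the falls were at least 2-fold. The median difference over all genes was 0.08. The arrays did not overlap between the groups for 2638 of the 2701 changed genes, and for 6242 of all genes. Leaving out Shh 2 lowered the count to 1795, and leaving out any other array gave 1965 to 2333. On all 3 Myc arrays and on no Shh array, 108 genes were above background, and 104 were above it on all 3 Shh arrays and on no Myc array. By group means, 6662 genes were below background in both groups, of which 96 rose and 35 fell. Of 9370 genes above it in both groups, 1115 rose and 998 fell. The shares for all genes used below include the dim genes, and lists differ in how many dim genes they hold.

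Counts are given first by class. Of 224 genes of the growth machinery, 32.6% rose and 4.46% fell. Of 878 metabolic genes, 17.7% rose and 4.78% fell, while of 763 transcription factors 3.28% rose and 13.2% fell. Among 169 channel and adhesion genes 2.37% rose and 18.3% fell. Receptors (489 genes, 5.73% rose and 8.79% fell) and secreted factors (492 genes, 8.74% and 7.52%) lay near the shares for all genes. Without Shh 2, the rises numbered 103 in place of 155 for metabolism, 13 in place of 25 for transcription factors and 25 in place of 43 for secreted factors. Without Shh 1, transcription factors had 11 rises and secreted factors 28. The rises among channel and adhesion genes numbered 4 with all arrays, 2 without Myc 1 and 1 without Shh 1, Shh 2 or Shh 3, and the gene counted without Shh 1 and without Shh 3 was none of the 4.

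**Figure D2:**
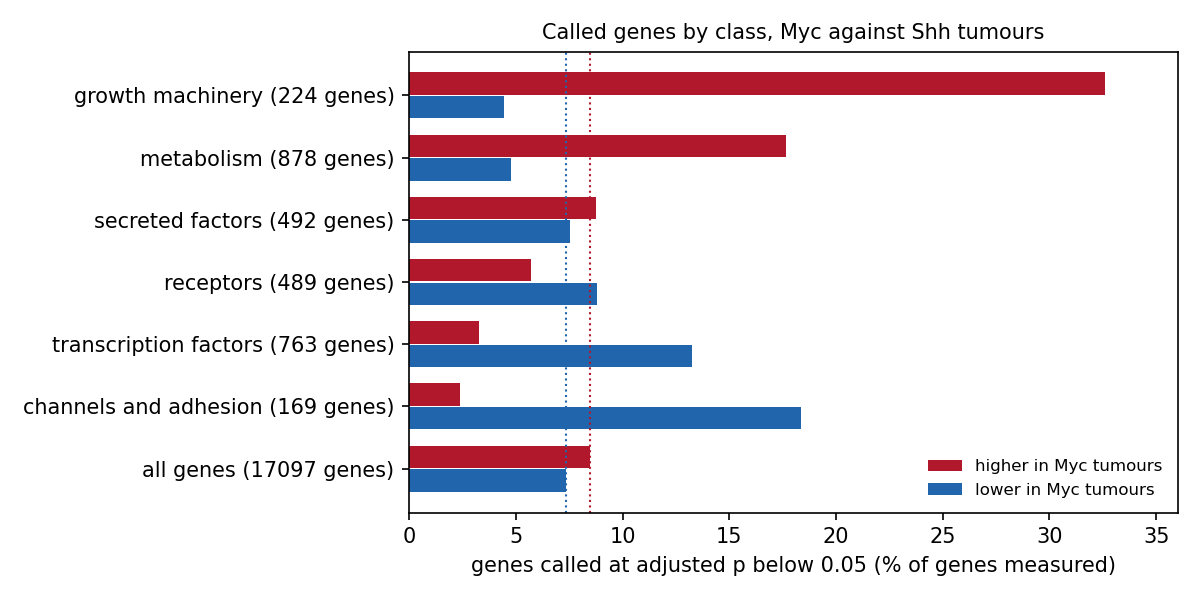
Share of genes called at adjusted p below 0.05 (x axis, percent of genes measured) in 6 classes and over all 17097 genes; red bars are rises in Myc tumours, blue bars falls, and dotted lines mark 8.46% and 7.33%. Growth machinery reaches 32.6% rises and transcription factors 13.2% falls.

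Among genes above background in both groups, the secreted Wnt-binding protein Sfrp1 had one of the largest falls. It read 5.42, 4.89 and 5.02 in Myc tumours and 11.20, 11.73 and 12.02 in Shh tumours, a 93.3-fold difference (-6.54 ± 0.25, adjusted p = 1.6e-08). Tbata lay at 5.18, 5.07 and 5.48 in Myc tumours and 11.52 to 12.09 in Shh tumours, 98.9-fold lower. Mdk, which encodes the heparin-binding growth factor midkine, read 5.58, 5.83 and 6.04 against 11.60, 11.21 and 11.60, 50.3-fold lower. For these 3 genes every Myc tumour lay far below every Shh tumour. The other large falls among the 15 named by rank took in Cadps2, a regulator of dense-core vesicle release (46.3-fold), Cavin2, a coat protein of caveolae (42.7-fold), Hsd11b2, which inactivates glucocorticoids (20.8-fold), the adhesion molecule Alcam (17.8-fold) and the receptor phosphatase Ptprd (17.3-fold).

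The largest rise among genes above background in both groups was Igfbp2, a secreted binding protein for insulin-like growth factors. It read 11.37, 11.25 and 10.83 in Myc tumours and 7.38, 5.57 and 5.63 in Shh tumours, 31.1-fold higher (4.96 ± 0.41, adjusted p = 9.7e-06). Ptgds, the prostaglandin D2 synthase of brain, lay at 10.23, 10.33 and 10.93 against 6.32, 5.71 and 5.91, 22.9-fold higher. The metal-binding protein Mt1 read 12.11, 12.46 and 12.23 against 7.52, 7.03 and 10.24, so that Shh 3 came nearest to the Myc tumours. The spread was wide for others of the 15 rises. Mgp, an inhibitor of matrix calcification, read 8.94, 9.88 and 11.80 in Myc tumours, highest in Myc 3, against 5.54, 4.65 and 7.05 (4.46 ± 0.74). Tff3, a trefoil peptide of mucosal secretions, read 10.25 and 10.27 in Myc 1 and Myc 2 but 7.46 in Myc 3, against 4.51 to 5.37 (4.40 ± 0.89). Syt4, a synaptotagmin of vesicle traffic, and Grb10, an adaptor of the insulin receptor, had wide Shh values (4.54 to 8.22 and 4.56 to 8.35). The call of Syt4 was lost without Shh 1 (2.79, adjusted p = 0.063) or Shh 2 (3.59, adjusted p just above the threshold), and that of Grb10 without Myc 2 (3.10, adjusted p = 0.058) or Shh 1 (2.51, just above the threshold).

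The same 30 genes were read in the other groups of the series, as a description. The mean of the secondary Myc tumours, grown from transplanted sphere cultures of Myc tumours, was nearer to the Myc than to the Shh mean for 14 of the 15 rises and 15 of the 15 falls. In GFP-positive cells, which the design text describes as sorted by the Atoh1 reporter from postnatal cerebellum and the source label as spontaneous tumour, the mean was nearer to the Myc tumours for 0 of the rises and 5 of the falls. In GFP-negative cells it was so for 7 and 9.

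The genes that define the models came out as follows. Myc read 8.41, 5.21 and 9.0 in Myc tumours and 8.19, 9.13 and 8.15 in Shh tumours, and did not differ at the threshold (-0.95 ± 0.74, adjusted p = 0.44). Myc 2 was low and the other 5 arrays overlapped. The sources used here do not say whether this probe set detects the introduced Myc, so the signal does not check the labels. Cdkn2c was below background on all 6 arrays, and no probe set was specific to Trp53. For Mycn the probe set used read 4.94, 4.10 and 4.58 in Myc tumours and 10.70, 10.75 and 10.64 in Shh tumours, at least 58.6-fold lower, and 2 of its 3 probe sets fell while 1 rose, so the gene's direction depends on the probe set. For the mean of the 3 the difference was -0.29 and not called. Mycl, the related family member, fell from a Shh range of 8.44 to 8.88 to a Myc range of 7.04 to 7.10.

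The granule lineage factor Atoh1 and the Shh pathway factor Gli1 were at or below background in Myc tumours. Atoh1 read 4.49, 4.82 and 4.55 against 9.87, 9.28 and 10.06 in Shh tumours, at least 30.9-fold lower. Gli1, the activator and readout of Shh signalling, read 3.45, 3.64 and 3.60 against 9.05, 9.38 and 9.58, at least 23.7-fold lower (adjusted p = 5.3e-08). The groups did not overlap for either gene. Of 7 measured markers of granule neuron progenitors 6 fell and 0 rose, and the summed signal was 11.31 to 11.96 in Myc and 12.98 to 13.27 in Shh tumours. The marker not called, Mfap4, leaned higher in Myc tumours (1.58 ± 0.69, adjusted p = 0.15). The call of Pax6 (-1.98) was lost without Myc 1, Myc 2 or any 1 Shh array. Of 9 measured Zic and Gli factors 4 fell and 0 rose (median -1.16, against 0.08 for all genes). Besides Gli1 they were Gli2 (5.09-fold), Zic2 (3.11-fold) and Zic5 (2.24-fold, a call lost with the 6 arrays alone). Ptch1, the Shh receptor, was 9.17, 9.26 and 9.56 in Myc tumours and spread from 9.90 through 7.03 to 4.56 in Shh tumours, with no call (2.17 ± 0.89, adjusted p = 0.12). Without Shh 1 the difference was 3.54 with an adjusted p of 0.0012, and without Shh 3 it was 0.87.

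Of 63 measured homeobox genes of brain regions, 4 rose and 12 fell, and 35 were below background in both groups. The falls numbered 7 without Myc 1 or without Shh 2, and the rises 2 without Myc 1 or Shh 3. Barhl1, a granule lineage factor, read 4.22, 4.33 and 4.14 in Myc tumours and 9.67, 9.70 and 9.66 in Shh tumours, at least 30.0-fold lower. Otx1, which patterns forebrain and midbrain, read 3.10, 3.38 and 3.57 against 8.58, 7.91 and 7.89, at least 10.2-fold lower. Both were below background on every Myc array. Otx2 also fell (12-fold), with Myc 2 at 7.25 and Myc 1 and Myc 3 at 4.01 and 5.08. Lhx2 (6.13-fold), a factor of forebrain and eye development, Meis1 (4.66-fold), a partner of Pbx and Hox proteins, and Cux2 (at least 3.84-fold), a marker of upper cortical layers, fell as well. The opposite direction was seen for Lhx8, a LIM homeobox factor of cholinergic neurons. It read 6.72, 7.01 and 6.25 in Myc tumours and 3.31, 3.42 and 3.45 in Shh tumours, at least 3.71-fold higher. The other rises were small. Lhx3 rose by 1.53, a call lost without Myc 1 (1.19) or Shh 3 (0.89). Six4 rose by 1.05, a call lost without Myc 1, Myc 3, Shh 1 or Shh 3 (0.96 to 1.03). Lhx9, below background in both groups, was 0.59 higher, and 0.51 with no call without Shh 2. None of the 34 Hox genes changed by limma (1 at an unadjusted p below 0.05), and all 34 were below background in both groups.

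Zinc-finger regulators of neural genes had the most falls among transcription factor lists apart from the large Zfp family. Of 48 measured, 17 fell and 1 rose (35.4% and 2.08%, against 7.33% and 8.46% of all genes), with a median of -0.57, and 11 fell without Shh 2. The rise was the neuronal factor Myt1l (1.29), a call lost without Myc 1 (1.0), Shh 1 (1.25) or Shh 3 (1.01). Tshz2, a teashirt factor, read 4.13, 4.33 and 5.09 against 9.94, 10.19 and 8.69, at least 26.6-fold lower. Its relative Tshz3 read 3.59, 4.24 and 4.33 against 7.67, 8.02 and 6.61, at least 6.33-fold lower, and Zfhx3, a large zinc-finger homeobox factor of neurons, fell 6.10-fold. In these 3 genes no Myc tumour reached the lowest Shh tumour, which the choice of named genes required. Of 295 genes named Zfp, 9 rose and 28 fell (3.05% and 9.49%, median -0.17), the falls near the share of all genes. The rises numbered 4 without Myc 2 or Shh 2 and 5 without Shh 1. Family members resemble one another in sequence, and the specificity of their probe sets was not tested.

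Klf and Sp factors had a median of -0.69, with 1 of 21 rising and 5 falling (4.76% and 23.8%, against 8.46% and 7.33% of all genes). Without Myc 1 or Myc 2, 3 fell and 0 rose. Klf12 read 6.40, 5.55 and 6.79 against 9.42, 9.85 and 8.70, 8.45-fold lower. Klf9, which responds to thyroid hormone and glucocorticoids, was 10.98, 11.23 and 11.09 against 12.16, 12.64 and 11.85, 2.16-fold lower and without overlap. Klf3 fell 3.76-fold. The calls of Klf6 (-2.0), Klf13 (-0.95) and the riser Klf15 (1.45) were each lost without at least 4 of the 6 arrays in turn, with values of -1.37 without Myc 1 for Klf6, -0.84 without Shh 3 for Klf13 and 1.17 without Myc 1 for Klf15. The ETS factors Etv5 (7.32-fold) and Etv1 (5.62-fold), known effectors of fibroblast growth factor signalling, were among 4 of 22 that fell (18.2%, against 7.33% of all genes). The calls of the other two, Elf1 (-1.28) and Etv3 (-0.97), were lost without Myc 1 (-0.92 and -0.62) and without Shh 1 (-1.08 and -0.93), among others. Sox9, which marks glial precursors and neural stem cells, fell 9.76-fold and read 5.20, 5.80 and 6.22 in Myc tumours against 9.04, 8.93 and 9.11. Hey1, a Notch target, fell 5.90-fold, and Hes6, a helix-loop-helix factor that opposes Hes1, rose by 0.92 ± 0.19. Hes1 itself fell at least 3.38-fold, a call lost without Shh 2 and with the 6 arrays alone. Esrrg, an orphan nuclear receptor that controls mitochondrial genes, was 7.17, 6.36 and 8.08 against 4.61, 4.69 and 4.50, at least 5.41-fold higher.

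The stress and early response factors depended on single arrays. Of 37 AP-1, Atf, Cebp and Maf factors, Batf3 rose and Jun, Fosb, Jund and Ddit3 fell. The falls numbered 9 without Myc 3, 2 without Myc 2 or Shh 3, 1 without Myc 1 and 0 without Shh 2. The rises numbered 2 without Myc 1 or Shh 3 and 0 without Shh 2. Jun read 10.19, 8.70 and 11.42 in Myc tumours and 11.60, 12.82 and 12.15 in Shh tumours, so that Myc 3 came close to Shh 1. Its difference of -2.09 was -1.39 without Myc 2 and -2.75 without Myc 3, and -1.77 without Shh 2, where the call was lost (adjusted p = 0.069). The calls of Fosb (-2.98), Jund (-0.89) and Ddit3 (-1.01) were also lost without Shh 2, at -2.32, -0.84 and -0.98, and that of Batf3 (0.98) at 0.94.

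Receptors changed in both directions, and the groups were far apart for several. The receptor tyrosine kinases gave 4 rises and 6 falls among 40 (10% and 15%), with 2 rises when Shh 1, Shh 2 or Shh 3 was left out. Ntrk3, the receptor of neurotrophin-3, read 5.73, 5.13 and 5.64 in Myc tumours and 10.46, 10.82 and 10.51 in Shh tumours, 34.2-fold lower, and 6 of its 7 probe sets fell. Egfr, the epidermal growth factor receptor, was 3.74, 3.88 and 5.71 against 8.77, 9.12 and 8.14, at least 12.1-fold lower, with Myc 3 alone above background. Pdgfra, a receptor of oligodendrocyte precursors and fibroblasts, fell 7.47-fold while both cell types' marker sums were highest in Myc 3. Kit, the receptor of stem cell factor, rose: 8.18, 8.38 and 8.01 against 5.98, 6.02 and 5.14, 5.56-fold higher. Flt3, a blood cell receptor, rose by 0.80 with its Shh mean below background. The calls of Met (2.03) and Erbb2 (0.64) were lost without each of 5 arrays, with 1.30 for Met and 0.48 for Erbb2 without Myc 2.

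Among 150 G protein-coupled receptors of small ligands and peptides, 116 were below background in both groups, 9 rose and 7 fell (6.0% and 4.67%, below the 8.46% and 7.33% of all genes). Ptger3, a receptor of prostaglandin E2, read 8.44, 8.64 and 8.31 in Myc tumours and 3.09, 3.11 and 3.18 in Shh tumours, at least 12.9-fold higher (adjusted p = 0.00017). Ntsr2, a neurotensin receptor, read 10.21, 9.38 and 9.12 against 6.02, 6.70 and 6.38, 9.20-fold higher. Lgr5, a stem cell receptor for R-spondins (5.74-fold), and Drd4, a dopamine receptor (at least 4.96-fold), rose as well. In the opposite direction, the somatostatin receptor Sstr2 read 5.89, 6.31 and 5.51 against 10.28, 9.52 and 10.13, 16.8-fold lower. The cannabinoid receptor Cnr1 fell 4.65-fold and the GABA-B receptor subunit Gabbr1 2.67-fold. Without Myc 2 there were 15 rises, and the falls numbered 4 without Myc 1 or Shh 3 and 3 without Myc 3. The orphan receptor Gpr153 fell 13.1-fold, from 7.69, 8.63 and 10.03 in Shh tumours to 4.93, 5.05 and 5.23.

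The Frizzled receptors of Wnt ligands did not move together. Fzd9 read 7.36, 7.36 and 6.92 against 4.37, 4.33 and 3.95, at least 5.44-fold higher, and Fzd5 rose 2.40-fold. Fzd7 read 7.21, 7.46 and 7.59 against 9.34, 8.85 and 8.82, 3.0-fold lower. Of 16 Frizzled and Wnt co-receptors 3 rose and 4 fell, the falls numbering 2 without Myc 2. The others were Fzd6 (at least 1.78-fold higher) and Fzd3 (2.05-fold lower), both not called as means of their probe sets, Lrp6 (-0.64) and Rnf43 (-1.22), of which the last pair lost their calls without Myc 2 (-0.53 and -1.18), among others. Tnfrsf19, a tumour necrosis factor receptor family member expressed in neural progenitors, rose 3.90-fold.

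Receptors of neurite guidance and of glutamate fell more often than they rose. Of 21 axon guidance receptors 6 fell and 1 rose (28.6% and 4.76%, against 7.33% and 8.46% of all genes). Dcc, the netrin receptor, read 6.88, 7.47 and 6.63 against 10.88, 11.20 and 10.93, 16.1-fold lower, and Robo2, a Slit receptor, fell at least 1.96-fold from Shh values of 5.20 to 6.76. The riser was Nrp2, a co-receptor of semaphorins and of vascular growth factors. It read 9.08, 8.99 and 8.78 against 4.59, 4.67 and 4.68, at least 18.1-fold higher (adjusted p = 1.2e-07), with all 3 Shh tumours below background. Of 16 glutamate receptor subunits 5 fell and 0 rose (median -0.44). They were 3 AMPA receptor subunits, Gria2 (10.5-fold), Gria3 (at least 6.11-fold) and Gria4 (4.05-fold), and Grin3a (at least 1.96-fold) and Grik2 (2.80-fold). Gria2 read 7.83, 6.66 and 7.98 in Myc tumours and 11.10, 10.50 and 11.06 in Shh tumours.

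**Figure D3:**
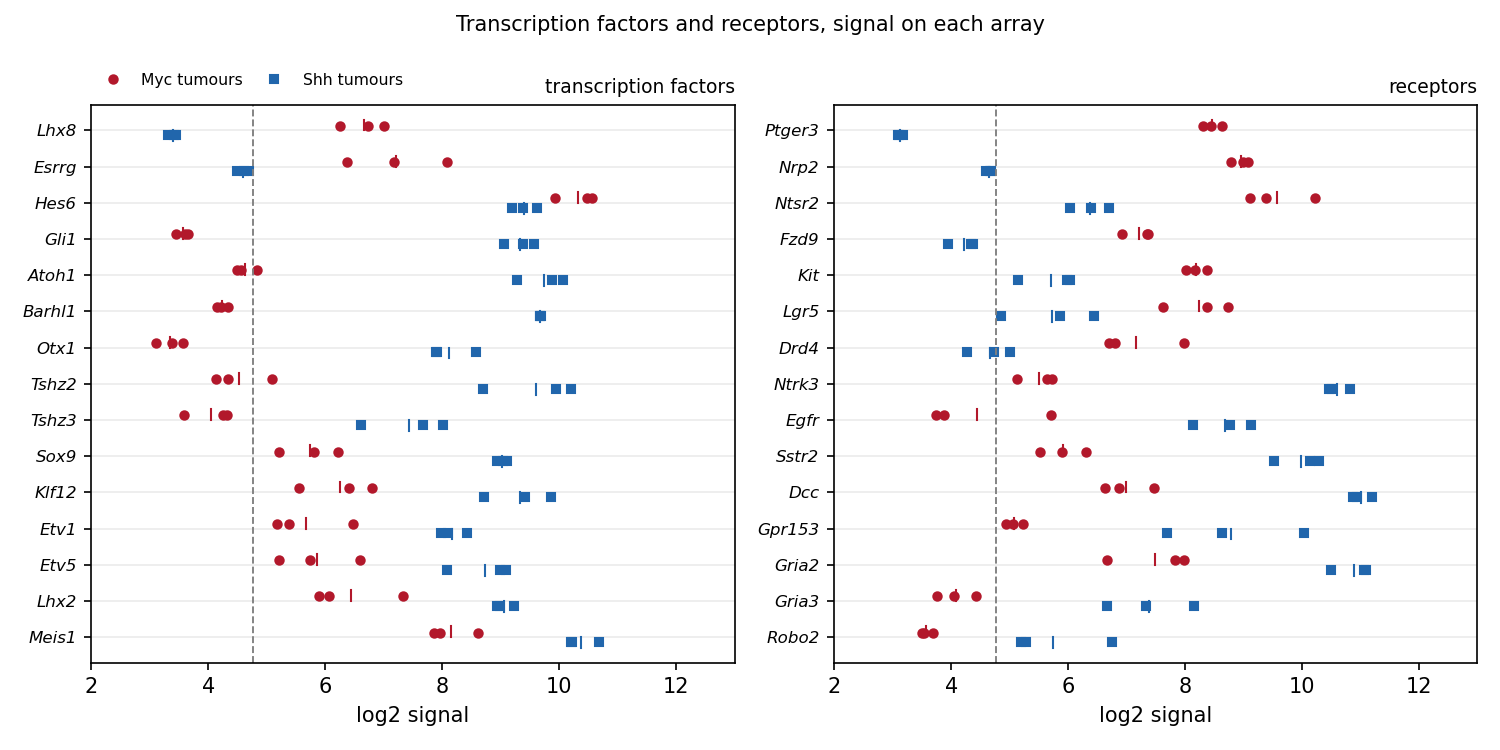
Log2 signal (x axis) of 15 transcription factors and 15 receptors on each array; red circles are Myc tumours, blue squares Shh tumours, ticks the group means and the dashed line background at 4.77. The 30 genes were picked from those that changed, most of them among genes whose groups do not overlap. That the 2 groups do not overlap in any of them therefore largely follows from the choice. Gli1, Barhl1 and Otx1 are below background on every Myc array while Ptger3 and Lhx8 are below it on every Shh array.

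Secreted factors changed in both directions, with 43 rising and 37 falling among 492. Of 11 insulin-like growth factors and their binding proteins, Igfbp2, Igfbp3 and Igfbp4 rose and Igfbpl1 fell. Igfbp3 read 7.73, 8.34 and 9.24 against 5.21, 4.55 and 5.40, 10.4-fold higher, and Igfbp4 rose 5.59-fold, with 5 of its 6 probe sets. The growth factor Igf2 read 8.79, 11.10 and 10.59 against 9.46, 8.57 and 6.36 and was not called (2.03 ± 0.70, adjusted p = 0.069). The call of Igfbpl1 was lost without any one array other than Shh 1 (adjusted p 0.08 to 0.18), and its difference of -2.33 was -1.55 without Shh 3.

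Of 22 measured fibroblast growth factors 2 rose and 2 fell (9.09% each, near the 8.46% and 7.33% of all genes), so the family's counts did not stand apart. Fgf15, made in neural progenitors, read 8.85, 8.61 and 8.46 in Myc tumours and 4.21, 4.14 and 4.14 in Shh tumours, at least 14.7-fold higher. Fgf9, a glia-activating factor, read 4.78, 5.06 and 4.20 against 8.32, 8.36 and 7.74, at least 9.63-fold lower. In both genes the group that was low was at or near background. The others were Fgf3 (at least 3.02-fold higher, a call lost with the 6 arrays alone) and Fgf5 (at least 2.04-fold lower). Among 49 neurotrophic, vascular and EGF-family factors 7 rose and 3 fell (14.3% and 6.12%, against 8.46% and 7.33% of all genes), with 4 rises without Myc 3. Angptl4, an inhibitor of lipoprotein lipase (5.84-fold), the vascular peptide Apln (3.70-fold) and Hbegf, a ligand of the EGF receptor (3.62-fold), rose. Angptl4 read 8.63, 8.40 and 8.91 against 5.73, 6.14 and 6.42. Mdk, Vegfc, a lymphatic growth factor (at least 5.0-fold), and Gas6 (2.66-fold), a ligand of Tyro3 family receptors, fell. Vegfa was not called (1.42 ± 0.70, adjusted p = 0.20), with Myc 2 at 9.81 and the other 5 arrays at 5.78 to 6.80.

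Of 19 Wnt ligands 3 fell and 0 rose (15.8% fell, against 7.33% of all genes), of which Wnt4 read 4.47, 4.69 and 4.87 against 6.27, 6.02 and 6.92. The others were Wnt9a (at least 2.59-fold) and Wnt5a (at least 1.38-fold). Of 16 secreted Wnt antagonists and R-spondins, Sfrp1 and Draxin fell and 0 rose. Draxin, which also repels axons, read 5.36, 6.07 and 5.09 against 10.01, 10.48 and 10.68, 29.6-fold lower. Of 27 TGF-beta and Bmp ligands, 2 rose and 3 fell (7.41% and 11.1%, against 8.46% and 7.33% of all genes), with a median of 0.14. Bmp5 was below background in all Myc tumours and 6.02, 9.76 and 9.79 in Shh tumours, at least 13.5-fold lower, with Shh 1 apart from the other two. The other falls were Gdf10 (at least 1.89-fold) and Bmp1 (2.38-fold). Gdf3 (at least 1.57-fold higher) and Bmp8b (at least 1.96-fold higher) rose, and the call of Bmp8b was lost without Myc 1, Myc 3, Shh 1 or Shh 2 (adjusted p 0.051 to 0.068). Of 16 secreted Bmp and activin antagonists, 0 changed by limma and 0 had an unadjusted p below 0.05.

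Of 19 class 3 semaphorins, netrins, Slits and related guidance ligands, 7 fell and 1 rose (median -0.53), and 2 rose without Myc 2 or Shh 3. Draxin, Ntng1 (5.21-fold), a netrin-like protein tethered to the membrane, and Rgmb (3.89-fold), a Bmp co-receptor, had the largest falls. Sema3g, a ligand that acts through neuropilins, was the riser: 8.41, 8.83 and 7.39 against 4.41, 4.68 and 5.04, at least 10.2-fold higher. Its receptor family member Nrp2 rose and Dcc fell, as given above. Of the neuroendocrine genes, Scg5, a chaperone of prohormone convertase (3.24-fold), and Nxph3, a neurexin ligand (6.08-fold), fell.

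Among matrix glycoproteins, 16.4% of 55 measured rose, against 8.46% of all genes, and the count moved with Myc 3 and the Shh arrays. In all, 9 rose and 1 fell (median 0.67); without Myc 3 the counts were 5 and 2 and the median 0.28, without Shh 1 there were 5 rises, and without Shh 2 there were 4 rises and 2 falls. Calls that held with every array left out in turn included Lamb1, a laminin chain of basement membranes, at 9.58 to 10.15 in Myc tumours against 5.49, 6.74 and 6.90, 11.6-fold higher, with all 4 of its probe sets. Fbn2, a microfibril protein of developing tissue, read 8.74, 8.91 and 8.73 against 5.90, 6.02 and 6.20, 6.73-fold higher. Hapln4, a link protein of perineuronal matrix, was at least 11.2-fold higher (8.77, 8.11 and 7.89 against 4.21, 4.27 and 4.09). In none of these 3 was Myc 3 the highest array. Fibronectin (Fn1) rose 2.94-fold, and its call was lost without Myc 3 (1.40, adjusted p = 0.054) or Shh 2 (1.15, adjusted p = 0.064). The fall was Lamb3 (at least 1.65-fold), not called with the 6 arrays alone.

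Collagens changed in both directions. Col23a1, a transmembrane collagen, read 9.20, 9.08 and 8.49 against 4.88, 4.90 and 5.27, 15-fold higher, with Myc 3 the lowest Myc tumour. Col3a1, a fibrillar collagen of connective tissue, read 7.77, 8.74 and 11.29 against 6.47, 6.45 and 6.71, highest in Myc 3, and its log2 difference was 2.72 with and 1.71 without Myc 3, and it was not called with the 6 arrays alone. The fibroblast marker sum, given above, was highest in the same array, but Col3a1 is itself a member of that list. The sum is therefore not a separate observation, and the part of fibroblasts in the Col3a1 difference was not tested. Col9a3 (8.32-fold) and Col9a2 (at least 1.72-fold), chains of a cartilage-type collagen, fell, as did Col11a1 (-1.76) and Col27a1 (-0.99), whose calls were lost without Myc 1 (-1.61 and -0.97) or Myc 2 (-1.46 and -0.98), among others. Of 42 collagens 6 rose and 4 fell (14.3% and 9.52%, against 8.46% and 7.33% of all genes). There were 3 rises without Shh 1 or Shh 2 and 2 falls without Myc 1 or Myc 2. Of the proteases and inhibitors, Spint2, an inhibitor of serine proteases, rose 6.04-fold (7.63, 7.70 and 7.38 against 4.73, 4.89 and 5.30). Mmp14, a membrane-bound metalloprotease (4.34-fold), and Reck (2.49-fold), its inhibitor, fell together.

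**Figure D4:**
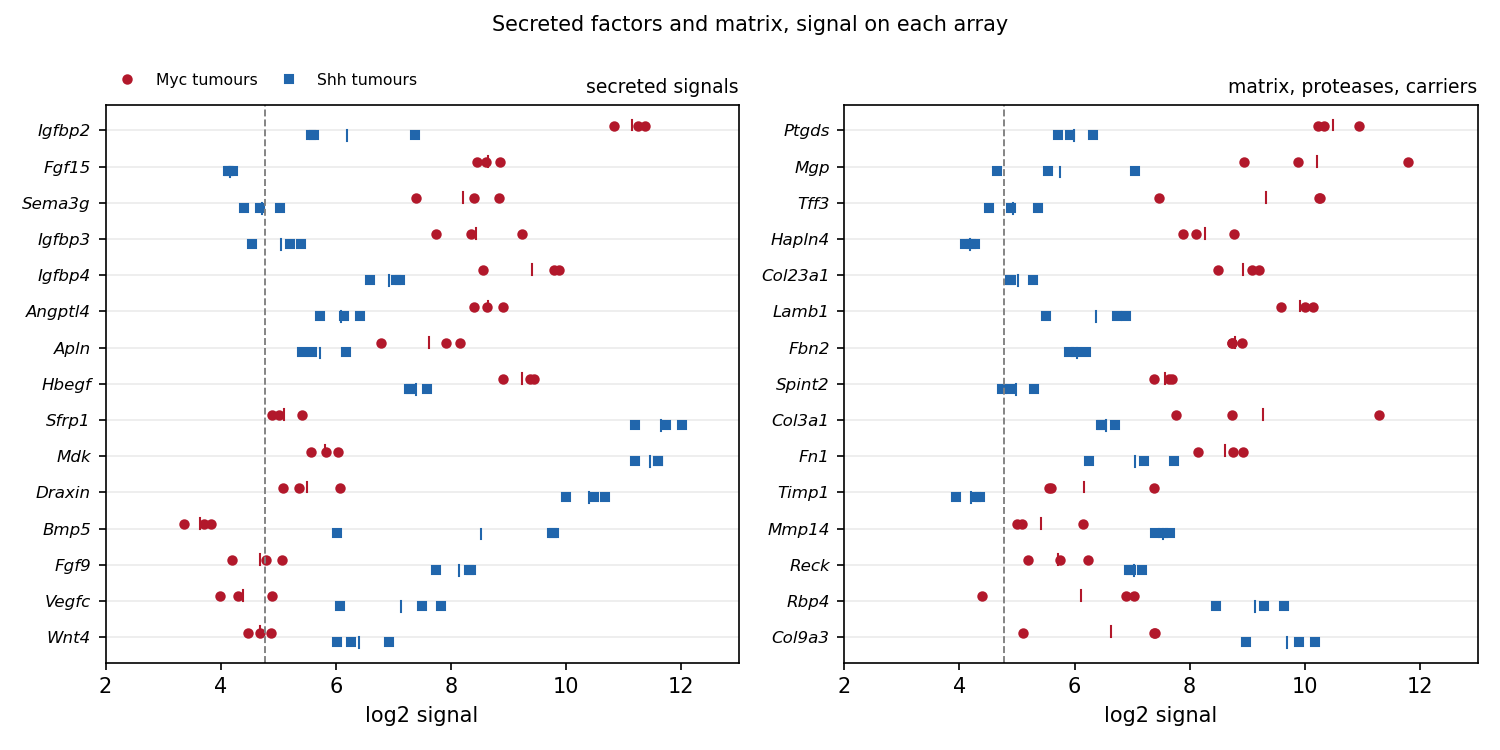
Log2 signal (x axis) of 15 secreted signals and 15 matrix proteins, proteases and carriers on each array; red circles are Myc tumours, blue squares Shh tumours, ticks the group means and the dashed line background at 4.77. The genes were picked from those that changed; Mgp and Col3a1 reach 11.80 and 11.29 in Myc 3, while Col23a1 and Fbn2 lie close together in all 3 Myc tumours.

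In metabolism, 155 genes rose and 42 fell. Glycolysis had 10 rises and 0 falls among 21 measured genes (median 0.82), 47.6% against 8.46% of all genes. Hexokinase Hk1 rose by 0.97 ± 0.27, a call lost without Myc 2, Myc 3, Shh 2 or Shh 3 (0.81 to 1.01, adjusted p 0.056 to 0.10), while Hk2 was not called (0.34 ± 0.30, adjusted p = 0.50). The phosphofructokinase subunit Pfkl read 7.43, 8.74 and 8.12 against 5.31, 5.43 and 5.31, 6.73-fold higher, and Pfkp rose 3.55-fold. Aldolase A (Aldoa, 3.34-fold), triose phosphate isomerase (Tpi1, 3.51-fold), phosphoglycerate kinase (Pgk1, 2.65-fold) and pyruvate kinase (Pkm, 2.29-fold) rose. Other members were not called, among them Gapdh (0.12, adjusted p = 0.56), Eno2 (-0.27), Pfkm (0.17) and the lactate dehydrogenase subunit Ldhb (-0.51). Lactate dehydrogenase A (Ldha), which turns pyruvate into lactate, read 12.54, 12.84 and 12.63 against 11.24, 10.78 and 11.05, 3.12-fold higher. The lactate exporter Slc16a3 was at least 1.71-fold higher. The main glucose transporters Slc2a1 (1.12 ± 0.48, adjusted p = 0.14) and Slc2a3 (0.49 ± 0.25, adjusted p = 0.21) were not called.

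At the entry of pyruvate into mitochondria the changes were opposed. Pdk1, the kinase that inactivates pyruvate dehydrogenase, read 8.74, 9.79 and 9.18 in Myc tumours and 4.06, 4.81 and 5.11 in Shh tumours, at least 20.2-fold higher (adjusted p = 9.7e-06), with all 3 probe sets. Its substrate subunit Pdha1 rose 2.04-fold, and Pcx, which feeds pyruvate into oxaloacetate, fell 4.49-fold (6.68, 5.70 and 6.74 against 7.99, 8.55 and 9.07). In the tricarboxylic acid cycle 9 of 22 genes rose and 0 fell (median 0.46), with 5 rises without Myc 3 or without Shh 2. Suclg2, a succinyl-CoA ligase subunit (3.01-fold), and Sdha, the catalytic subunit of succinate dehydrogenase (2.22-fold), kept their calls with every array left out. Respiratory chain subunits rose in 20 of 76 and fell in 0 (median 0.30), with 13 rises without Myc 3 or Shh 1 and 11 without Shh 2. Ndufs6 of complex I read 11.19, 11.19 and 11.37 against 9.87, 9.73 and 9.84, 2.71-fold higher.

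Serine, glycine and folate enzymes gave 11 rises and 1 fall among 23 (median 0.89). These enzymes pass the carbon of serine to folate for nucleotide synthesis and, through homocysteine, to cysteine. The fall was Ggh (-0.56), which cleaves folate tails, a call lost without each array other than Shh 2. Cth and Cbs, the 2 steps from homocysteine to cysteine, had the largest rises. Cth read 8.99, 9.47 and 8.63 against 5.76, 5.39 and 5.35, 11.5-fold higher. Cbs read 7.63, 7.40 and 7.32 against 5.28, 4.38 and 4.91, 6.03-fold higher. The folate carrier Slc19a1 read 9.44, 9.44 and 9.31 against 7.45, 7.45 and 7.55, 3.77-fold higher, and Fpgs, which retains folate in the cell, rose 4.03-fold. Mthfd1l (2.87-fold), Shmt1 (2.63-fold), Mthfd1 (2.21-fold) and Shmt2 (2.08-fold), which move carbon units between serine and folate, rose. Phgdh, the first step of serine synthesis, rose by 0.89 ± 0.22, a call lost without Myc 2, Shh 1 or Shh 2 (0.74 to 0.88), and Psat1, the second, was not called (-0.38 ± 0.25, adjusted p = 0.35).

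Genes of nucleotide synthesis rose as well. Of 22 purine genes 11 rose and 0 fell (median 0.73), with 7 rises without Myc 2 or without Shh 2. Ppat, the committed step, read 9.90, 9.71 and 9.53 against 8.80, 8.72 and 8.33, 2.14-fold higher. Gart (2.35-fold), with all 4 of its probe sets, and Impdh1 (2.64-fold), the entry to guanine nucleotides, rose too. The largest rise of the list was an enzyme of the cell surface, Nt5e, which makes adenosine from AMP (at least 3.82-fold). Ak4, a mitochondrial adenylate kinase, rose 3.76-fold at 9.29, 9.91 and 8.90 against 7.89, 6.15 and 8.32, and its log2 difference of 1.91 was 1.26 without Shh 2 and was not called with the 6 arrays alone. Of 26 pyrimidine and deoxynucleotide genes 9 rose and 1 fell, with 5 rises and 0 falls without Shh 2. The fall, Ctps2 (-0.78), was not called with any 1 array left out, and the 1 fall of the list without Myc 2 and without Shh 1 was another gene. Dctd (3.78-fold) and Dctpp1 (2.94-fold), which control deoxycytidine nucleotides, Dhodh (2.78-fold), the mitochondrial step of pyrimidine synthesis, and the salvage kinase Uck2 (2.41-fold) rose.

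Polyamine genes changed in both directions. Spermidine synthase (Srm) had an SD of 0.0064 over the 3 Myc tumours and read 10.47, 10.42 and 10.61 in Shh tumours, 2.84-fold higher in Myc tumours. All 3 Myc tumours lay above the Shh range. Odc1, the rate-limiting enzyme and a textbook Myc target, rose by 0.82 ± 0.20 (adjusted p = 0.016), a call lost without Myc 2 (0.72, adjusted p = 0.057) or Shh 2 (0.70, adjusted p = 0.071). The oxidase Smox (fell by 0.91 on the log2 scale) and Sat2 (3.71-fold) fell. In all, 5 of 11 rose and 3 fell, with 3 rises without Shh 2. Dhps, which modifies the translation factor eIF5A, rose 2.30-fold. The calls of Sat1 (1.20; 1.13 without Shh 1), Dohh (0.59; 0.48 without Myc 1 and 0.50 without Shh 2) and Oaz2 (-0.73; -0.56 without Myc 3) were lost with arrays left out. Among lipid genes, fatty acid synthesis and desaturation had 7 rises and 0 falls among 24 (median 0.59), among them Acsl5, which activates fatty acids (4.46-fold). Dgat2, which completes triglycerides, rose 5.48-fold, at 8.62, 9.41 and 8.46 against 6.74, 6.69 and 5.69. Glutathione and antioxidant enzymes had 9 rises and 3 falls among 53, with the glutathione transferase Gsto1 at 11.06, 11.17 and 10.85 against 8.03, 7.68 and 9.09, 6.80-fold higher, and Gstt1 5.28-fold, the peroxidase Gpx7 4.15-fold and Ggt7 2.5-fold lower.

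Single metabolic genes stood far apart between the groups. Car12, a carbonic anhydrase of the cell surface that handles acid, read 7.86, 9.13 and 7.67 against 3.26, 3.28 and 3.30, at least 10.9-fold higher. The neutral amino acid transporter Slc38a4 read 7.35, 6.63 and 7.86 against 3.40, 3.58 and 3.62, at least 5.69-fold higher. Slc17a6, the vesicular glutamate transporter of excitatory neurons, read 5.26, 4.49 and 4.07 against 9.28, 9.62 and 9.85, at least 25.1-fold lower. In each of these 3 genes, the lower group was near or below background. Slc1a2, the glutamate uptake carrier of astrocytes, fell at least 1.74-fold. Of 10 measured astrocyte and Bergmann glia markers 3 fell, Slc1a2, Slc1a3 (-1.07) and Gdf10 (-2.13), and 1 rose, Gja1 (2.19 ± 0.47). Their summed signal was 11.37, 10.13 and 11.66 in Myc 1, Myc 2 and Myc 3. It was 9.27 to 10.31 in Shh tumours, so that only Myc 2 lay within the Shh range. In heme synthesis Ppox fell 5.56-fold (5.17, 5.35 and 5.47 against 7.88, 7.77 and 7.77) and Alad rose 2.83-fold.

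E-boxes of the sequence CACGTG, the letters Myc and Max are known to bind, were counted in the 250 bases upstream of each start in RefSeq (GRCm38.p6). The palindrome reads the same on both strands. Of 13605 tested genes with a window, 8.75% held it, against 12.3% of 1187 that rose and 8.60% of 977 that fell. Among 717 metabolic genes with a window 11.9% held it, and among the 130 of them that rose 13.1%. Of 30 ribosome assembly genes that rose, 1 held it. The Gli motif GACCACCCA, searched on both strands, was in 0.199% of windows and in 3 of the 977 falling genes. A match is a description of the letters and not a bound site. The windows of Cbs and Ak4 are shown because these were the 2 largest named rises in metabolism whose window held an E-box, which is in capitals. That of Cbs is chr17:31637206-31637455 on the minus strand, with the E-box starting 229 bases upstream of the start. That of Ak4 is chr4:101419453-101419702 on the plus strand, with the E-box starting 214 bases upstream, in 1 of 4 windows of the gene.
Cbs: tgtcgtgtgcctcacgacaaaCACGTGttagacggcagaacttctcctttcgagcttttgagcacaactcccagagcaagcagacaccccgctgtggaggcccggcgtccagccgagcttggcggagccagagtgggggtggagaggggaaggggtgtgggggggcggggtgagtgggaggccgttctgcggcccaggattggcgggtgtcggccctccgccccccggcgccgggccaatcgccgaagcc
Ak4: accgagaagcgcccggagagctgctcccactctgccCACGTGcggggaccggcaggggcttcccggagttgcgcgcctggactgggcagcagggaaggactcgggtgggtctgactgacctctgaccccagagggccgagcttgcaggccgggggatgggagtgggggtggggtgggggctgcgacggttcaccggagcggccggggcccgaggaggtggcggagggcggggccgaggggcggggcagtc

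The growth machinery rose unevenly. Ribosome assembly factors, which process and export pre-ribosomes in the nucleolus, had 34 rises and 0 falls among 47 (72.3%, median 1.04), the highest share of any of the 69 lists. Nop16 read 10.59, 9.86 and 10.33 against 7.63, 7.98 and 8.62, 4.54-fold higher. Rrp12 (3.67-fold) and Rrp9 (3.59-fold), which mature the small subunit, also rose. The groups overlapped for none of these 3, which the choice of named genes required. The proteins of the mitochondrial ribosome had 33 rises and 1 fall among 73 (median 0.53), with 20 rises without Myc 3, 19 without Shh 1 and 16 without Shh 2. The fall was Mrpl47 (at least 1.74-fold), whose call was lost without Myc 1, Myc 2, Shh 1 or Shh 2 (-0.73 to -0.94). Mrpl36 (4.22-fold) and Mrps27 (3.49-fold) rose, and Mrps30 read 9.77, 9.92 and 9.84 against 8.41, 8.09 and 8.36, 2.94-fold higher. The proteins of the cytosolic ribosome showed little of this: 4 of 66 rose and 0 fell, with a median of 0.07, near that of all genes, and 2 rose without Myc 2. They were Rps23, Rps27l, Rps15a and Rpl14. Rps23 read 13.24 to 13.33 in Myc and 12.55 to 12.82 in Shh tumours. The calls of Rpl14 (1.5; 1.28 without Shh 3) and Rps15a (1.10; 0.98 without Myc 2) were lost with arrays left out.

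Among cell cycle regulators, more fell than rose. Of 38 cyclins, kinases and inhibitors, 9 fell and 2 rose (23.7% and 5.26%, against 7.33% and 8.46% of all genes). Cdk6, a partner of D cyclins, read 8.0, 7.90 and 8.77 against 10.47, 10.97 and 10.57, 5.45-fold lower, with all 3 probe sets. Ccnd1, a Shh target in granule progenitors, fell 2.91-fold (9.99, 10.83 and 9.86 against 11.74, 11.70 and 11.86). The inhibitor Cdkn2b fell 2.85-fold. The riser Ccne1, which drives entry into S phase, read 8.41, 7.83 and 8.27 against 6.43, 6.80 and 6.67, 2.90-fold higher, and Cdk7, a kinase of the cell cycle and of transcription, rose 2.38-fold in all 5 of its probe sets.

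Among adhesion and channel genes, more fell than rose. Of 66 cadherins and protocadherins, 20 fell and 0 rose (30.3% fell, against 7.33% of all genes), with 12 falling without Shh 2. Below background in both groups were 33, and the median was -0.04. Pcdhb9, of the clustered protocadherins that give neurons their surface identity, read 4.15, 3.76 and 4.01 against 8.76, 8.69 and 7.99, at least 13.1-fold lower. Cdh20 (at least 11.8-fold) and the giant cadherin Fat2 of granule cells (at least 5.81-fold) fell. The clustered protocadherins are near-identical in sequence in part, so single members are uncertain. Of 103 voltage-gated channels 11 fell and 4 rose (10.7% and 3.88%, against 7.33% and 8.46% of all genes). The rises numbered 2 without Myc 1, 1 without Shh 1 or Shh 2 and 0 without Shh 3. The risers, Cacna1a, Kcne4, Kcnip2 and Kcnj5, had differences of 0.58 to 0.92 that were not called without Shh 1 or Shh 3. Kcne4 and Kcnip2 were below background in both groups. Cacng2, which brings AMPA receptors to the synapse, read 5.34, 5.36 and 4.53 against 9.42, 9.26 and 8.45, 15.6-fold lower, and Kcnmb4, a subunit of calcium-activated potassium channels, fell 6.01-fold.

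**Figure D5:**
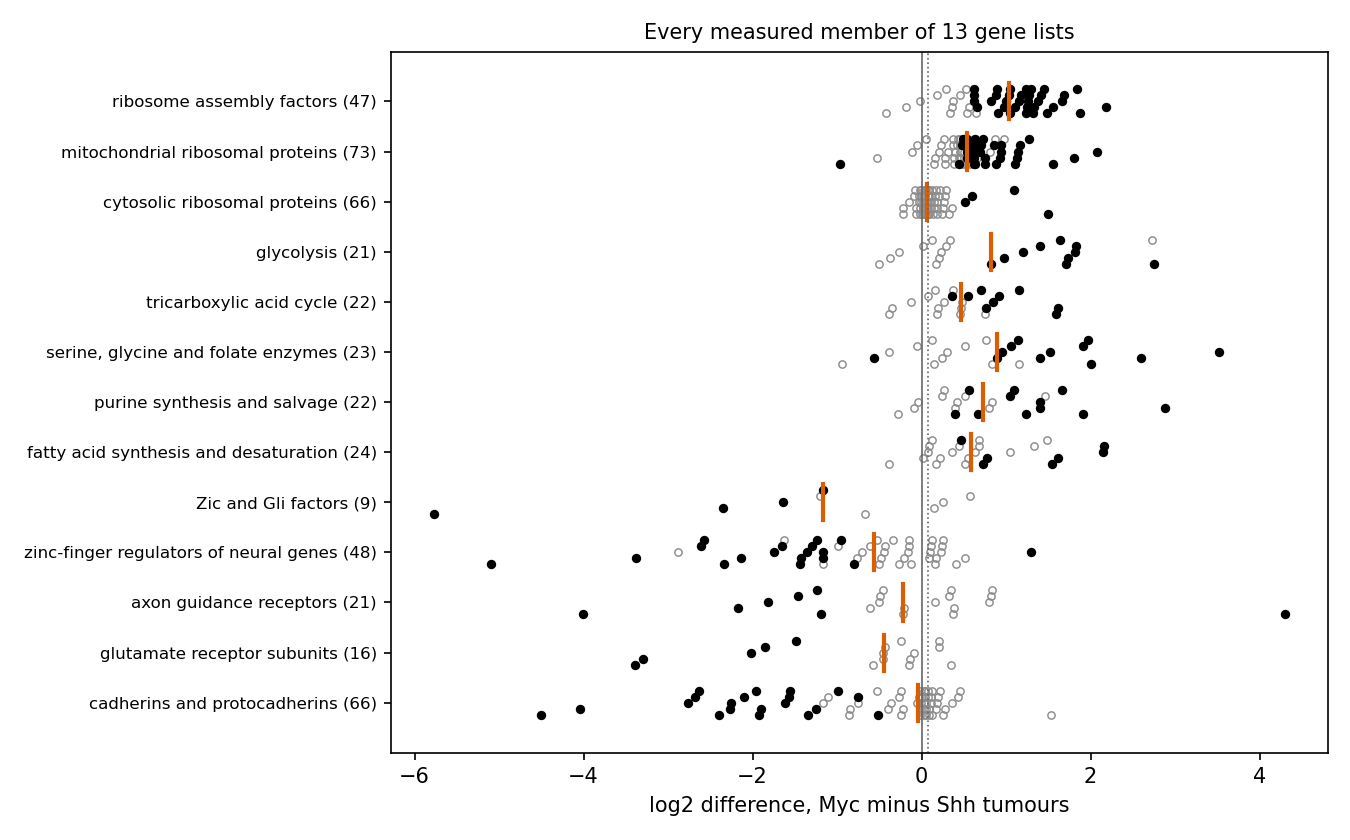
Log2 difference, Myc minus Shh tumours (x axis), of every measured member of 13 gene lists; filled points are genes called at adjusted p below 0.05, open points the others, orange bars list medians and the dotted line the median of all genes, 0.08. Ribosome assembly factors centre on 1.04 and cytosolic ribosomal proteins on 0.07, and the zinc-finger regulators on -0.57; differences of genes below background are shown as measured.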

How the data were processed

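Values were used as the authors deposited them, as log2 signals of 45141 probe sets on 15 arrays, made with Partek 6.5 and RMA per the submitters' processing notes, whose settings are not given in the sources used here. Of the probe sets, 28898 are listed with 1 gene, 551 with several and 15588 with none. A gene was represented by its probe set with the highest mean over the 15 arrays, which gave 17097 genes; only such probe sets were used. limma 3.58.1 in R 4.3.3 was fitted to all 5 groups of 3, which share the estimate of the spread (10 residual and 2.54 prior degrees of freedom), with two-sided tests, Benjamini-Hochberg adjustment over all genes and no covariates. The fit was tested on simulated shifts added to genes of these arrays. The comparison, the gene lists and the markers were chosen with earlier results of these data known, so their counts are descriptions. Genes named are the 15 largest rises and falls above background, up to 3 each way in every list, and the genes of the models. Those named by rank and by list were drawn only from called genes whose groups do not overlap. Others were named after their values were seen, among them Hk1, Shmt1, Lgr5, Drd4, Grin3a, Zic5 and Mrpl47. As alternatives, values were averaged over all probe sets of a gene, and the others were genes dim everywhere left out, cyclic loess, arrays centred on the median gene, the 6 arrays alone, trended and robust variance, array weights, every probe set, and each array left out. Precision is limited by the 3 arrays per group. Python 3.11.15, numpy 2.4.6, pandas 2.3.3 and matplotlib 3.10.9 made the tables and figures.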

Additional observations from a re-analysis of the deposited data

How the results depend on the processing

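The count of 2701 changed genes was 2761 with the mean of each gene's probe sets, 2755 with dim genes left out, 3201 after cyclic loess, 2659 with arrays centred, 2689 with trended and robust variance, 3688 with array weights and 2319 with the 6 arrays alone, of which 1873 were shared. Taken by every probe set, 4166 probe sets changed. Leaving out 1 array gave 1795 (without Shh 2) to 2333, with 1735 shared without Shh 2. Of 279 called genes named by rule, 181 were called under every alternative and 98 lost the call under at least 1, 62 of them with the 6 arrays alone. The difference of Myc, -0.95, ranged from -1.68 without Myc 3 to 0.21 without Myc 2 when 1 array was left out. The sign changed without Myc 2, the array with the low Myc signal, and why that signal was low was not tested. No paired analysis was possible because the labels give no pairing between samples of the 2 groups. Genes below background in a group have only a bound on their fold, and 3 arrays per group limit what can be called among genes that vary.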

Other observations

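Other genes outside the lists were near background in Shh tumours and bright in Myc tumours. Umodl1, an olfactory and vomeronasal matrix protein, was at least 21.5-fold higher, and Fkbp11, a folding enzyme of the endoplasmic reticulum, at least 20.5-fold. Nefh, the heavy neurofilament chain of large axons, was at least 14.4-fold higher. These 3 were chosen after their values were seen.

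Among markers of other neurons, the summed signal of 7 forebrain genes was 7.86 to 8.93 in Myc tumours, which grew in cortex, and 9.75 to 10.24 in Shh tumours. Of the 7, 3 fell: Neurod6, the brightest in Shh tumours (9.30 to 9.71), Cux2, and Fezf2, below background in both groups. Cux2 averaged 6.75 in Shh tumours, 6.52 in GFP-positive and 6.74 in GFP-negative cells. The part of forebrain neurons in these sums was not tested. Emx1 and Tbr1, which mark cortical excitatory neurons, were below background on all 6 arrays. Of 8 GABAergic and Purkinje genes 6 were below background on all 6 arrays, Gad1 and Gad2 among them. Of 7 ependymal and choroid plexus markers, Clic6 and Otx2 fell, 0 rose and 3 were below background on all 6 arrays. Clic6 was below background in all Myc tumours and read 5.52, 7.92 and 9.47 in Shh tumours. Ttr leaned the other way without a call (3.72 ± 1.89, adjusted p = 0.22). It read 9.55 and 9.53 in Myc 1 and Myc 2, 3.79 in Myc 3 and 3.86 to 3.95 in Shh tumours. The list's summed signal was 7.12 in Myc 3 and 9.39 to 10.38 in the other 5 arrays. The brightest marker in Myc 1 and Myc 2 was Ttr, which was below background in the Shh tumours, so the sums do not compare the same members.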
